A study of Bos taurus with 9 samples.

Results

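The regions described here were 972 long peaks of RNA polymerase II (Pol II) that were called in butyrate-treated bovine cells and had no control Pol II peak on them. They were chosen by measured values, namely a length of 500 bp or more in the butyrate Pol II list and no shared base with any control Pol II peak. They are called long new peaks here, where new means only that the control list held no Pol II peak at that place. Nuclear chromosomes alone were used, which left out 15 mitochondrial Pol II peaks, 11 of them of 500 bp or more. The 972 peaks (exact 95% Poisson interval 912 to 1035) were 3.11% of the 31225 nuclear butyrate Pol II peaks and 7.48% of the bases in them, or 634 kb.

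Chromatin immunoprecipitation followed by sequencing (ChIP-seq) was done in MDBK cells, an established line of bovine kidney epithelium. Control cells received no butyrate, and treated cells were grown for 24 h in 5 mM butyrate, and the labels give neither group a transgene or another agent. Each condition had 1 library for each of 4 antibodies, against Pol II, H3K27ac, H3K9ac and H3K9me3, and the 8 lists together held 673926 peaks. All controls were sequenced in lane 4 and all treated libraries in lane 5, so that lane and treatment cannot be told apart. With 1 library in a group there was no spread between replicates and no test of the treatment. The intervals given are 95% Wilson intervals over peaks and cover counting error only.

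Pol II transcribes protein-coding genes. In ChIP-seq it commonly forms a narrow peak where it pauses just after a start site, and a broader stretch of signal where it is engaged along a gene or at an active enhancer. H3K27ac marks active promoters and enhancers, H3K9ac is found mostly at active promoters, and H3K9me3 marks silent heterochromatin. Butyrate is a short-chain fatty acid that rumen and gut microbes make, and it inhibits histone deacetylases, the enzymes that remove acetyl groups from histones. A peak list shows where signal passed a caller's threshold, and a change in a list is a change in calls and in called length, not in the amount of a mark.

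Depth is not recorded in the lists and was not used here. The control Pol II list held more peaks than the butyrate list, 56225 against 31225 on nuclear chromosomes, whereas its long peaks were fewer, 569 against 1174. The reverse held for acetylation. H3K27ac peaks covered 1.43% of the genome span, counted to the last peak of each chromosome, in control and 3.05% after butyrate, and H3K9ac peaks covered 1.09% and 1.39%. Every change at the long new peaks stands against these shifts of the whole lists, and the part of sequencing depth in either was not tested.

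Among all nuclear butyrate Pol II peaks, 91.7% had no control Pol II peak on them. Among those of 500 bp or more the share was 82.8% (80.5 to 84.8%), since 202 of the 1174 were also met by a control Pol II peak. The remaining 27672 new peaks were shorter than 500 bp, so that 3.39% of new peaks were long. As the rule used both lengths and the control list, these values describe the choice and nothing is read from them.

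Most long new peaks were only just long. Their lengths had a median of 590 bp and quartiles of 535 and 689 bp, 528 were under 600 bp, and 51 reached 1 kb, with the longest at 2466 bp. The longest butyrate Pol II peak of all, at 5500 bp, was not among them because a control Pol II peak lay on it. Around the threshold, 77 long new peaks were at it or less than 10 bp above and 83 new peaks fell short of it by at most 10 bp. Control H3K27ac met 72.7% of the former and 68.7% of the latter, and butyrate H3K27ac met 87.0% and 78.3%. For H3K9ac the shares were 75.3% and 71.1% in control and 67.5% and 66.3% after butyrate. The widest of these gaps was that in butyrate H3K27ac.

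Acetylation was present at most long new peaks before the treatment. Control H3K27ac peaks shared at least 1 bp with 787 of the 972, or 81.0% (78.4 to 83.3%), against 40.1% of all butyrate Pol II peaks. Control H3K9ac peaks met 751, or 77.3% (74.5 to 79.8%), against 38.4% of all. The places where a long Pol II peak was called only after butyrate were thus, in most cases, already inside or beside acetyl peaks in untreated cells.

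After butyrate the 2 acetyl marks went different ways at these places. Butyrate H3K27ac met 814 long new peaks, or 83.7% (81.3 to 85.9%), against 59.2% of all butyrate Pol II peaks. Butyrate H3K9ac met 624, or 64.2% (61.1 to 67.2%), against 41.2% of all. H3K27ac met 109 of the long new peaks only after butyrate and 82 only in control. For H3K9ac these numbers were 83 and 210. Among all butyrate Pol II peaks they were 7698 and 1713 for H3K27ac, and 4954 and 4053 for H3K9ac. Since the same places were counted in both conditions, the intervals are no measure of the change. Over all butyrate Pol II peaks both shares were higher in the butyrate list.

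The heterochromatin mark H3K9me3 was rare at long new peaks in both conditions. Control H3K9me3 met 44, or 4.53% (3.39 to 6.02%), with a background of 4.52%. Butyrate H3K9me3 met 50, or 5.14% (3.92 to 6.72%), with a background of 6.60%. Of the 44 met in control, 8 were met again after butyrate (18.2%, 9.51 to 32.0%, background 28.4%), and 86 (8.85%, background 9.84%) were met in either condition. These shares lay near those of butyrate Pol II peaks at large.

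**Figure D1:**
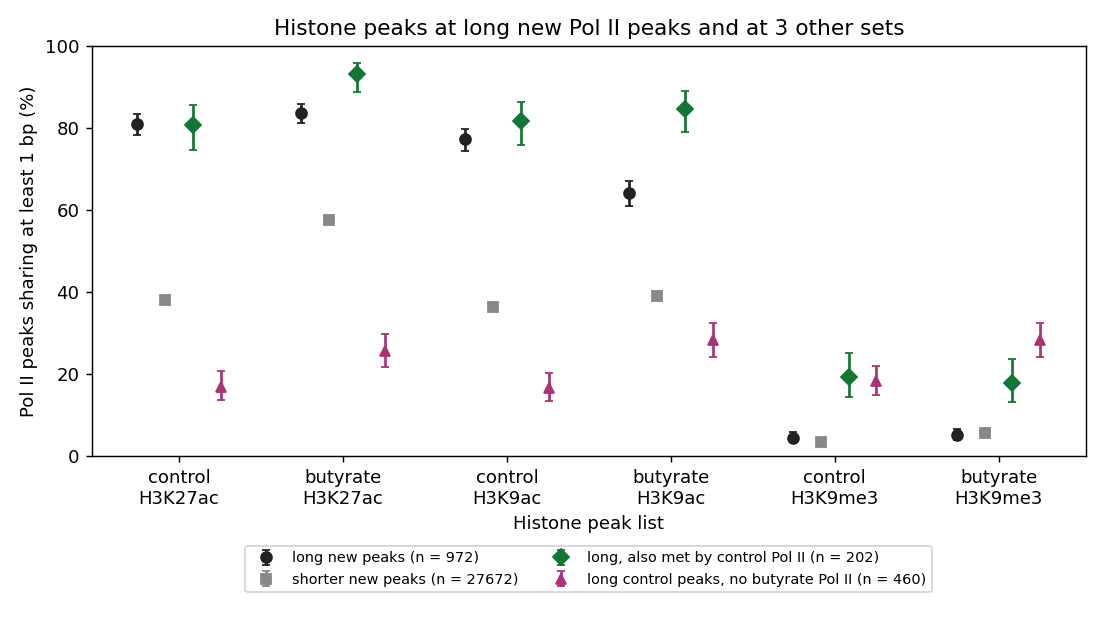
Share of Pol II peaks (vertical axis, %) that share at least 1 bp with a peak of each of 6 histone lists (horizontal axis), for the long new peaks and 3 other sets of Pol II peaks, with bars for 95% Wilson intervals. Long new peaks sit near 80% for control H3K27ac (81.0%) and control H3K9ac (77.3%) and lower, at 64.2%, for butyrate H3K9ac, whereas long control peaks that no butyrate Pol II peak met lie at 16.7% to 28.3% throughout.

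A longer peak has more chance to touch another peak, so the same shares were taken at the single base in the centre. Centres of long new peaks lay inside control H3K27ac peaks in 64.9% and inside butyrate H3K27ac peaks in 70.5%, compared with 33.8% and 53.1% for all butyrate Pol II peaks. For H3K9ac the shares were 59.4% in control and 43.2% after butyrate, compared with 32.6% in each condition for all. The higher share than in the background and the lower H3K9ac share after butyrate were therefore both present at a single base. This takes away only the greater chance of touching, since the centre shares also rose with Pol II peak length, as given below.

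A further 3 sets of Pol II peaks place these values. The 27672 shorter new peaks were met by control H3K27ac in 38.2% and by control H3K9ac in 36.3%, less often than the long ones, and by butyrate H3K27ac and H3K9ac in 57.6% and 39.1%. The 202 long butyrate peaks that a control Pol II peak also met had control shares like those of the long new peaks, 80.7% for H3K27ac and 81.7% for H3K9ac. After butyrate this set had 93.1% for H3K27ac and 84.7% for H3K9ac, above the 83.7% and 64.2% of the long new peaks, with intervals that did not overlap. It also met H3K9me3 more often, 19.3% in control and 17.8% after butyrate. The 460 long control Pol II peaks that no butyrate Pol II peak met were of another kind, with 17.0% met by control H3K27ac, 16.7% by control H3K9ac and 18.3% by control H3K9me3. Long Pol II peaks present in only 1 list thus lay mostly on acetyl peaks when the list was butyrate and mostly off them when it was control.

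Taken place by place, 758 of the long new peaks, or 78.0% (75.3 to 80.5%), met an acetyl peak of either mark in both conditions, against a background of 42.6%. Another 85 (8.74%, background 5.94%) met acetyl peaks only in the control lists. The number that met them only after butyrate was 73, or 7.51% (6.02 to 9.34%), although 21.8% of all butyrate Pol II peaks did so. No acetyl peak of any list met 56 (5.76%, background 29.7%). A long new Pol II peak on an acetyl peak that was itself called only after butyrate was the less common case, and less common than for Pol II peaks at large. Length enters here, as long new peaks had a median of 590 bp against 235 bp and touch a control acetyl peak more easily. These classes were not taken at the centre.

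Just 2 patterns of the 4 acetyl lists held most of the long new peaks. All 4 lists met 503 (51.7%, background 20.1%), and 146 (15.0%, background 7.56%) met both H3K27ac lists and control H3K9ac but not butyrate H3K9ac. The next pattern with any acetylation, H3K27ac and H3K9ac in control and neither after butyrate, held 42 (4.32%, background 1.67%). Of the 787 met by control H3K27ac, 705 were met again after butyrate, or 89.6% (87.3 to 91.5%), with a background of 86.3% among all butyrate Pol II peaks met by that list in control. Of the 751 met by control H3K9ac, 541 were met again, or 72.0% (68.7 to 75.1%), with a background of 66.2%. The H3K9ac that was no longer called left 210 long new peaks, and newly called H3K9ac reached 83.

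The acetyl peaks on which long new Pol II peaks lay were themselves long. The 900 control H3K27ac peaks concerned had a median of 600 bp, against 288 bp over that list, and 25.6% reached 1 kb, against 4.86%. The 853 control H3K9ac peaks had a median of 585 bp against 300 bp, and 21.6% against 3.46% reached 1 kb. After butyrate the 899 H3K27ac peaks had a median of 745 bp against 326 bp, and 34.5% against 5.31% reached 1 kb. The 732 butyrate H3K9ac peaks were shorter than the control ones but also long for their list, with a median of 410 bp against 271 bp and 5.19% against 0.560% at 1 kb or more. Since longer peaks are also more likely to be touched, these lengths are a description.

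At these places more of the control H3K27ac bases than of the control H3K9ac bases were called again after butyrate. Butyrate H3K27ac covered 79.1% of the bases of the control H3K27ac peaks that met long new peaks, against 60.2% over the whole list. Butyrate H3K9ac covered 51.1% of the bases of the control H3K9ac peaks that met them, against 37.0% over the list. Among the 184 such control H3K9ac peaks of 1 kb or more, 104 (56.5%) were met by 2 or more separate butyrate H3K9ac peaks and 54.3% of their bases were still covered, against 47.0% and 46.9% over all control H3K9ac peaks of that length. Both of the covered shares first given were above those of the whole lists, so the loss of called H3K9ac was not larger here than across the genome when counted from control H3K9ac peaks.

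Around the long new peaks, within 5 kb on either side of the centre, the bases covered by H3K27ac peaks rose from a median of 1824 in control to 2992 after butyrate. More bases were covered after butyrate at 710 of the 972, or 73.0% (70.2 to 75.7%, background 67.4%), and fewer at 253, or 26.0% (background 16.3%). The bases covered by H3K9ac fell from a median of 1618 to 1262. Only 315, or 32.4% (29.5 to 35.4%), had more H3K9ac bases after butyrate against a background of 45.5%, and 636, or 65.4%, had fewer against 36.7%. For H3K27ac the share that gained was a little over the background. For H3K9ac the balance between gain and loss was turned around relative to Pol II peaks at large. Those had less control H3K9ac to lose, a median of 494 bases, and 5553 of the 31225 had equal cover, against 21 of the 972. The part of this starting cover in the turn was not tested. The turn was not particular to new peaks. Of the 202 long butyrate peaks that a control Pol II peak met, 62.4% had fewer H3K9ac bases within 5 kb and 36.6% had more.

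H3K27ac cover was higher after butyrate at every distance. In the 200 bp on either side of the centre, control H3K27ac covered 63.4% of the bases and butyrate H3K27ac 70.1%, against 30.5% and 48.9% for all butyrate Pol II peaks. Between 2 and 5 kb away the values were 16.2% and 25.7%, against 8.62% and 17.1%, and between 5 and 10 kb they were 10.2% and 18.0%, against 6.22% and 13.3%. The H3K27ac gain at the flanks was thus close in percentage points to that around Pol II peaks at large, and the gain at the centre was smaller than theirs. In percentage points the loss of H3K9ac was greatest at the centre, where coverage was 59.0% in control and 41.9% after butyrate. Coverage was 27.9% and 16.8% between 500 bp and 1 kb, a larger loss relative to the control value than at the centre. The values were 13.7% and 11.1% between 2 and 5 kb, and 7.82% and 6.99% between 5 and 10 kb. At the centres of the shorter new peaks H3K9ac coverage was 27.3% in control and 26.8% after butyrate, a net change that was small beside that at the long ones. It was a balance of loss and gain, as H3K9ac met 3615 shorter new peaks only in control and 4379 only after butyrate. Of the shorter new peaks met by control H3K9ac, 64.0% were met again after butyrate, against 72.0% of the long ones.

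**Figure D2:**
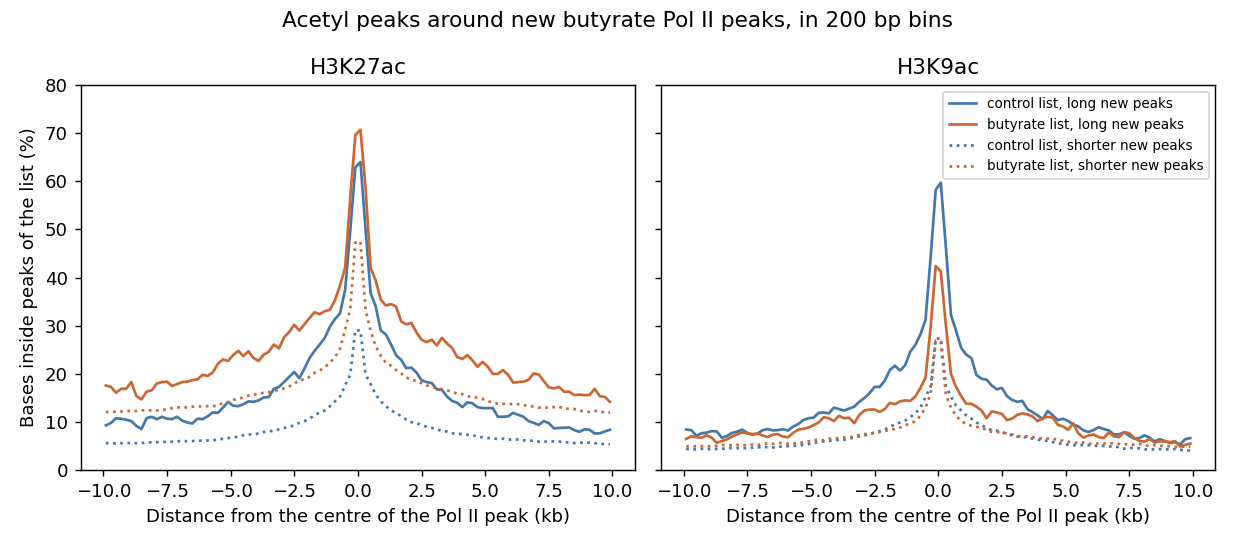
Bases inside acetyl peaks (vertical axis, %) by distance from the centre of new butyrate Pol II peaks (horizontal axis, kb, bins of 200 bp), with H3K27ac on the left and H3K9ac on the right, for the 972 long new peaks (solid lines) and the 27672 shorter ones (dotted lines). At long new peaks the butyrate H3K27ac line runs above the control line out to 10 kb, while the butyrate H3K9ac line lies below the control line near the centre and meets it towards the edges.

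Inside the long new peaks themselves the H3K27ac calls were nearly balanced. Covered bases were more numerous after butyrate at 391 (40.2%, background 37.8%), fewer at 317 (32.6%, background 11.8%) and equal at 264, with means of 401 bp in control and 438 bp after butyrate. For H3K9ac 191 had more (19.7%, background 22.7%), 605 had fewer (62.2%, background 24.9%) and 176 were equal, and the mean fell from 370 to 250 bp. The background had less to lose. Its peaks had a median length of 235 bp and a median control cover of 0 bp for each acetyl mark. Cover was equal at 15756 of the 31225 for H3K27ac and at 16366 for H3K9ac. The contrasts in fewer bases were not adjusted for this. In all, H3K27ac peaks covered 61.5% of the bases of long new peaks in control and 67.1% after butyrate, and H3K9ac peaks 56.7% and 38.2%. Pol II was thus newly called over stretches whose called H3K27ac was about as wide as before and whose called H3K9ac was narrower. Inside the 202 long butyrate peaks that a control Pol II peak met, H3K9ac bases were likewise fewer at 55.0% and more at 29.7%.

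**Figure D3:**
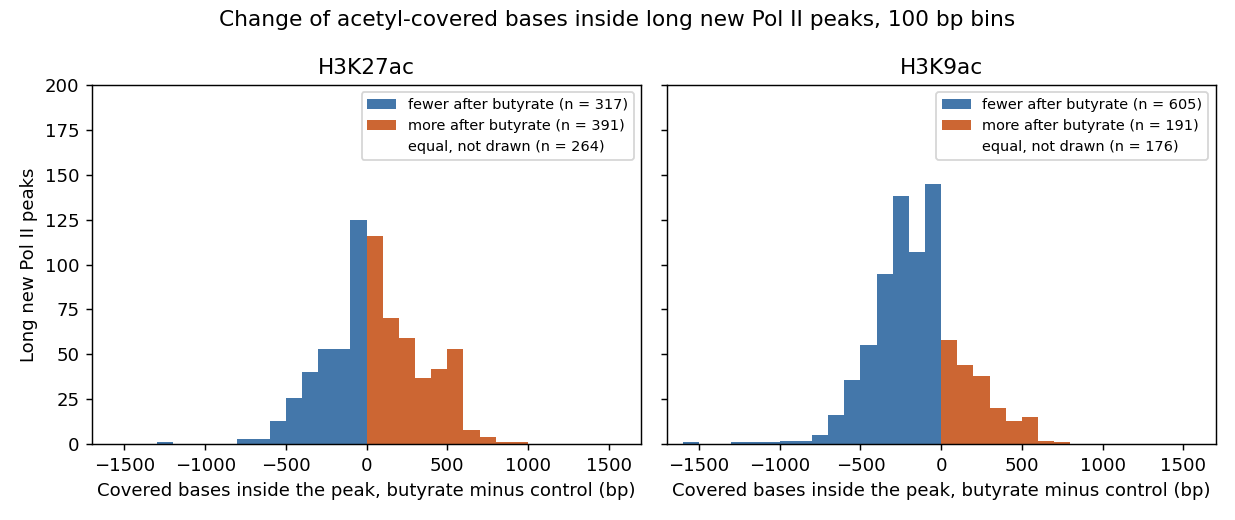
Number of long new peaks (vertical axis) by the change in their bases inside H3K27ac peaks (left) or H3K9ac peaks (right), butyrate minus control (horizontal axis, bp, bins of 100 bp), with peaks of equal coverage not drawn. The H3K27ac changes lie on both sides of 0, with 391 above and 317 below, and the H3K9ac changes lie mostly below 0, with 605 fewer and 191 more.

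How fully a Pol II peak sat in acetylation also differed between lists. Control H3K27ac covered 248 of the long new peaks from end to end (25.5%, background 19.3%), and butyrate H3K27ac covered 374 (38.5%, background 38.4%). For H3K9ac the numbers were 199 in control (20.5%, background 18.1%) and 71 after butyrate (7.30%, 5.83 to 9.11%, background 14.6%). Butyrate H3K9ac was thus the list that met long new peaks more often than the background but covered them whole less often, though a longer peak is also harder to cover whole.

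The acetyl shares changed with length on both sides of the threshold. The share of new Pol II peaks centred in control H3K27ac was 26.5% among the 16829 under 250 bp, 53.3% from 400 bp to the threshold and 63.8% at 500 to 599 bp. It then stayed level, at 67.4% for 600 to 749 bp and 66.7% for 750 to 999 bp. Control H3K9ac followed the same course, from 25.1% in the shortest class to 60.8% at 500 to 599 bp. The control shares therefore still rose across the length threshold of 500 bp, and changed little between 600 bp and 1 kb.

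Above the threshold the butyrate acetyl shares went down with length, while the control shares stayed near level up to 1 kb and were lower only in the last class. Butyrate H3K27ac was at the centre of 73.9% of long new peaks of 500 to 599 bp, 71.1% at 600 to 749 bp and 65.0% at 750 to 999 bp. Among the 51 of 1 kb or more it was 45.1% (32.3 to 58.6%), beside 58.8% (45.2 to 71.2%) for control H3K27ac and 45.1% (32.3 to 58.6%) for control H3K9ac. Butyrate H3K9ac went from 48.3% to 42.2%, 33.3% and 19.6% (11.0 to 32.5%) over the same 4 classes. The class of 1 kb or more thus had the lowest centre share of the 4 long classes in each acetyl list, with the widest gap between the first and last class in butyrate H3K27ac and butyrate H3K9ac.

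**Figure D4:**
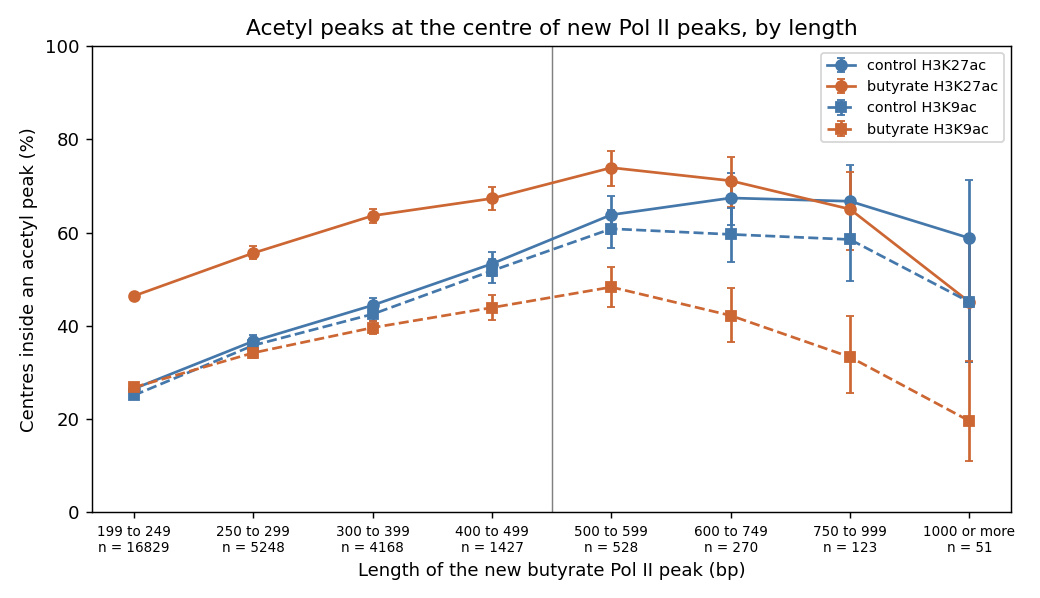
Share of new butyrate Pol II peaks whose centre lies inside an acetyl peak (vertical axis, %) by class of Pol II peak length (horizontal axis, bp, with n per class), with bars for 95% Wilson intervals and a grey line at 500 bp. The control lists rise to 58.5% to 67.4% between the threshold and 1 kb, and the butyrate H3K9ac share falls from 48.3% at 500 to 599 bp to 19.6% at 1 kb or more.

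The 51 long new peaks of 1 kb or more were nearly all touched by acetyl peaks in control, though fewer had their centre inside one. Control H3K27ac met 50 of them (98.0%, background 40.1%) and control H3K9ac 47 (92.2%, background 38.4%). Butyrate H3K27ac met 41 (80.4%, background 59.2%) and butyrate H3K9ac 26 (51.0%, background 41.2%). Peaks of this length are touched more easily than those of the background. Their bases inside H3K27ac peaks went from 63.2% in control to 47.9% after butyrate, and those inside H3K9ac peaks from 49.7% to 18.3%. Fewer H3K9ac bases after butyrate were found in 44 of the 51, against 24.9% of all butyrate Pol II peaks, whose median control H3K9ac cover was 0 bp. In the 528 of 500 to 599 bp, by comparison, H3K27ac cover was higher after butyrate, 71.1% against 58.2%.

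The longest new Pol II peak, of 2466 bp, lay on chromosome 13 from 31944926 to 31947391. It held 280 bp of control H3K27ac and 269 bp of control H3K9ac, and no acetyl peak after butyrate met it. Around it, within 5 kb of the centre, H3K27ac nevertheless went from 2508 to 3251 bp. The acetylation called after butyrate thus flanked this Pol II stretch and did not lie on it.

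The next in length were on chromosome 1. The peak from 353056 to 355407, of 2352 bp, held 533 bp of control and 443 bp of butyrate H3K27ac, and 244 bp of control H3K9ac with none after butyrate. The peak from 43786297 to 43788500, of 2204 bp, lay mostly inside control acetylation, with 1875 bp of H3K27ac and 1780 bp of H3K9ac. After butyrate these were 1153 bp and 268 bp. At both places H3K27ac cover fell by a smaller share than H3K9ac cover.

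A similar order was seen on chromosome 3 from 16868880 to 16870907, where a peak of 2028 bp held 1750 bp of control and 1424 bp of butyrate H3K27ac, and 1463 bp of control and 327 bp of butyrate H3K9ac. On chromosome 23 from 28088422 to 28090348 a peak of 1927 bp held only 237 bp of control H3K27ac, and no other acetyl list met it. On chromosome 11 a peak of 1762 bp from 46848959 to 46850720 went against the others in H3K27ac, with 790 bp in control and 1322 bp after butyrate, while its 1075 bp of control H3K9ac gave way to none. These 3 peaks differed widely in acetylation although their lengths were close.

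The other 4 of the 10 longest were chromosome 11 from 9289283 to 9290978, chromosome 7 from 22342256 to 22343807, chromosome 11 from 25582346 to 25583892 and chromosome 3 from 21432341 to 21433768, of 1696, 1552, 1547 and 1428 bp. Each met both H3K27ac lists and control H3K9ac. H3K9ac cover went from 1322 to 806 bp in the first and from 960 to 217 bp in the second, and from 590 and 469 bp to none in the last pair. In this group of 10, bases of H3K9ac fell in 9 and were at 0 in both conditions in the peak on chromosome 23. Their distance to the nearest control Pol II peak ran from 0.181 kb, at the peak of 2352 bp, to 107 kb, at the peak of 1547 bp.

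Taken by length, 5 long new peaks led those met by control H3K27ac and by no acetyl peak after butyrate, and the 2 longest of these were the peaks on chromosomes 13 and 23 described above. The others lay on chromosome 19 from 11033398 to 11034633, chromosome 13 from 61727195 to 61728405 and chromosome 13 from 44953820 to 44954910. The first of these, of 1236 bp, was covered along its whole length by control H3K27ac. In its surroundings within 5 kb, H3K27ac cover fell from 8486 to 3166 bp. At the second, of 1211 bp, 647 bp of control H3K27ac inside the peak were gone after butyrate, and cover within 5 kb fell from 2174 to 593 bp. At the third, of 1091 bp, 322 bp of control H3K27ac inside the peak were gone, and cover within 5 kb was 1389 bp in control and 1292 bp after butyrate. The choice itself asked for acetyl calls that were no longer made on the new Pol II peak, so only the cover around these 5 is read. Its change differed widely between them.

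The converse, butyrate H3K27ac with no control acetyl peak, was led by a peak of 931 bp on chromosome 5 from 27216940 to 27217870. Butyrate H3K27ac covered all 931 bp of it and butyrate H3K9ac 314 bp. A peak of 739 bp on chromosome 7 from 2925414 to 2926152 was likewise covered throughout by butyrate H3K27ac. No control acetyl peak lay within 5 kb of its centre, where butyrate H3K27ac reached 5014 bp and butyrate H3K9ac 1864 bp, and the nearest control Pol II peak was 74.7 kb away. At this place Pol II and both acetyl marks were all called only after butyrate.

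Within 5 kb of the centre of the peak on chromosome 5, by contrast, control H3K27ac covered 1554 bp and butyrate H3K27ac 2548 bp. The other 3 of that kind also had control H3K27ac close by. They lay on chromosome 20 from 20858809 to 20859554, chromosome 25 from 39347555 to 39348289 and chromosome 15 from 67779723 to 67780417. Control H3K27ac within 5 kb of their centres covered 1921, 246 and 552 bp, and butyrate H3K27ac 4973, 836 and 2297 bp. Of these 5, only the peak on chromosome 7 had no control acetyl peak within 5 kb.

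The 56 long new peaks without any acetyl peak were mostly close to one. Their median distance to the nearest acetyl peak of any of the 4 lists was 0.513 kb, 38 had one within 1 kb and 50 within 5 kb. H3K9me3 of either condition met 7 of them, and 9.84% of all butyrate Pol II peaks. The longest, of 1022 bp on chromosome 4 from 117913961 to 117914982, was 2.75 kb from the nearest acetyl peak. The next were 892 bp on chromosome 7 from 22411511 to 22412402 and 830 bp on chromosome 13 from 63750155 to 63750984, at 1.39 and 0.658 kb. Most long new peaks in this group were thus near acetyl peaks. That is common, as 80.8% of all butyrate Pol II peaks had a butyrate H3K27ac peak within 5 kb. Distances were not taken for the 9278 butyrate Pol II peaks without acetyl peaks, so nothing particular to long new peaks is read here.

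Of the 5 longest, 2 were far from acetylation. A peak of 772 bp on chromosome 29 from 43092565 to 43093336 was 14.6 kb from an acetyl peak and 222 kb from a control Pol II peak. A peak of 758 bp on chromosome 7 from 5598436 to 5599193 was 33.5 kb from an acetyl peak, and butyrate H3K9me3 covered 584 bp of it. The greatest distance in the group was 67.2 kb.

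Long new peaks were placed among other Pol II peaks. The median distance to the nearest control Pol II peak was 8.32 kb, against 9.33 kb for the shorter new peaks. A control peak lay within 1 kb of 110 (11.3%) and within 10 kb of 528 (54.3%), against 10.4% and 52.0% of the shorter ones. Another butyrate Pol II peak lay within 5 kb of 669, or 68.8% (65.8 to 71.7%), against 45.1% of the shorter ones, with a mean of 1.91 against 0.825 such neighbours. For control Pol II peaks within 5 kb the shares were 39.3% and 35.1%. Relative to the shorter new peaks, the crowding around long new peaks was therefore mainly one of butyrate Pol II calls, from the list by which they were chosen. It was not particular to new peaks. Among the 202 long butyrate peaks that a control Pol II peak met, 75.7% had another butyrate Pol II peak within 5 kb, with a mean of 2.45.

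They were spread over all 29 autosomes and the X chromosome. Chromosome 5 held the most, 83, but also 9.43% of all butyrate Pol II peaks against 8.54% of the long new ones. Chromosome 19 held 55, and 5.38% (4.16 to 6.94%) of its new Pol II peaks were long. Its density of 0.859 per Mb was the highest of any chromosome. The X chromosome held 1 among its 256 new Pol II peaks, or 0.391% (0.0690 to 2.18%), below the 3.39% over the genome.

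Long new peaks also came in runs, defined as 2 or more with gaps of at most 10 kb. There were 81 runs with 197 long new peaks, or 20.3% (17.9 to 22.9%), and 775 stood alone. The share in runs was not taken for other Pol II peaks. Pairs made up 61 of the runs, 11 had 3 long new peaks, 5 had 4, 2 had 5 and 2 had 6. The runs spanned 1.15 to 21.0 kb with a median of 4.12 kb, lay on 27 chromosomes and had a median gap of 1634 bp, with 43 of the 116 gaps under 1 kb. Within the run spans, Pol II peaks covered 2.32% of the bases in control and 44.5% after butyrate, a contrast that the choice of the peaks builds in.

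Nearly all runs touched acetyl peaks in control cells, over widely varying shares of their length. Control H3K27ac met 79 of the 81 runs and control H3K9ac 77, and a control Pol II peak lay in the gaps of 14. No background was taken for spans of this width, which are easily touched. Control H3K27ac lay within 5 kb of 95.1% of long new peaks and of 70.5% of all butyrate Pol II peaks. The counts of runs are therefore a description. Control H3K27ac covered from 0 to 100% of a run, with a median of 44.4%. The largest rise in H3K27ac cover, a run picked after its values were seen, was on chromosome 16 from 53151799 to 53160188, from 5.72% to 75.6%. Over all runs H3K27ac cover of the spans was 45.8% in control and 50.8% after butyrate, and it was higher after butyrate in 40 runs, lower in 39 and equal in 2. H3K9ac cover was 38.0% and 21.7%, lower in 67 runs, higher in 12 and equal in 2. Long new peaks in runs were met by butyrate H3K9ac less often than single ones, 54.8% (47.8 to 61.6%) against 66.6% (63.2 to 69.8%). Peaks of a run are close neighbours, which the intervals do not allow for, so the intervals do not judge this gap. Length was not matched either. Butyrate H3K9ac met 65.5% of long new peaks of 500 to 599 bp and 51.0% of those of 1 kb or more. For control H3K9ac the shares in runs and alone were 74.6% and 77.9%, and for control H3K27ac 83.8% and 80.3%. Butyrate H3K27ac met 79.7% (73.5 to 84.7%) of those in runs and 84.8% (82.1 to 87.1%) of single ones, the same direction as butyrate H3K9ac.

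The longest run lay on chromosome 1 from 343528 to 364511. It had 6 long new peaks in 21.0 kb, the longest of them the peak of 2352 bp, and 16 butyrate Pol II peaks in all against 2 in control. Control H3K9ac covered 6.90 kb of it and butyrate H3K9ac 1.75 kb, while H3K27ac covered 9.47 and 9.02 kb. In control the acetylation lay to one side, since the last control H3K9ac peak ended 11.0 kb and the last control H3K27ac peak 15.5 kb from the start of the run. Within the run, butyrate H3K27ac reached 20.6 kb, into the final long new peak, and the last butyrate H3K9ac peak ended at 7.64 kb. Past the end of the run both marks were called again after butyrate. Butyrate H3K9ac lay from 21232 to 21602 bp and butyrate H3K27ac from 21185 to 21431 bp from its start.

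The other run of 6, on chromosome 22 from 21481573 to 21498662, spanned 17.1 kb and held no control Pol II peak. It was acetylated throughout in control, with H3K27ac over 83.5% and H3K9ac over 61.5% of its bases. After butyrate these were 54.7% and 22.2%, so that both marks covered less while 10 Pol II peaks were called. The megabase around it, from 21000001 to 22000000, held 8 long new peaks, the most of any such window, among 31 butyrate and 24 control Pol II peaks.

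Both runs of 5 also had less H3K9ac after butyrate. On chromosome 1 from 42814220 to 42826402, H3K27ac covered 92.7% and then 82.8% of 12.2 kb, and H3K9ac 76.2% and then 44.7%. The 7 control H3K9ac peaks of that run gave way to 12 that covered less in all. On chromosome 10 from 49855895 to 49866372, H3K27ac covered 50.2% and then 54.5% of 10.5 kb, and H3K9ac 45.8% and then 25.4%. Of these 4 runs, H3K27ac cover was higher after butyrate only in the last.

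**Figure D5:**
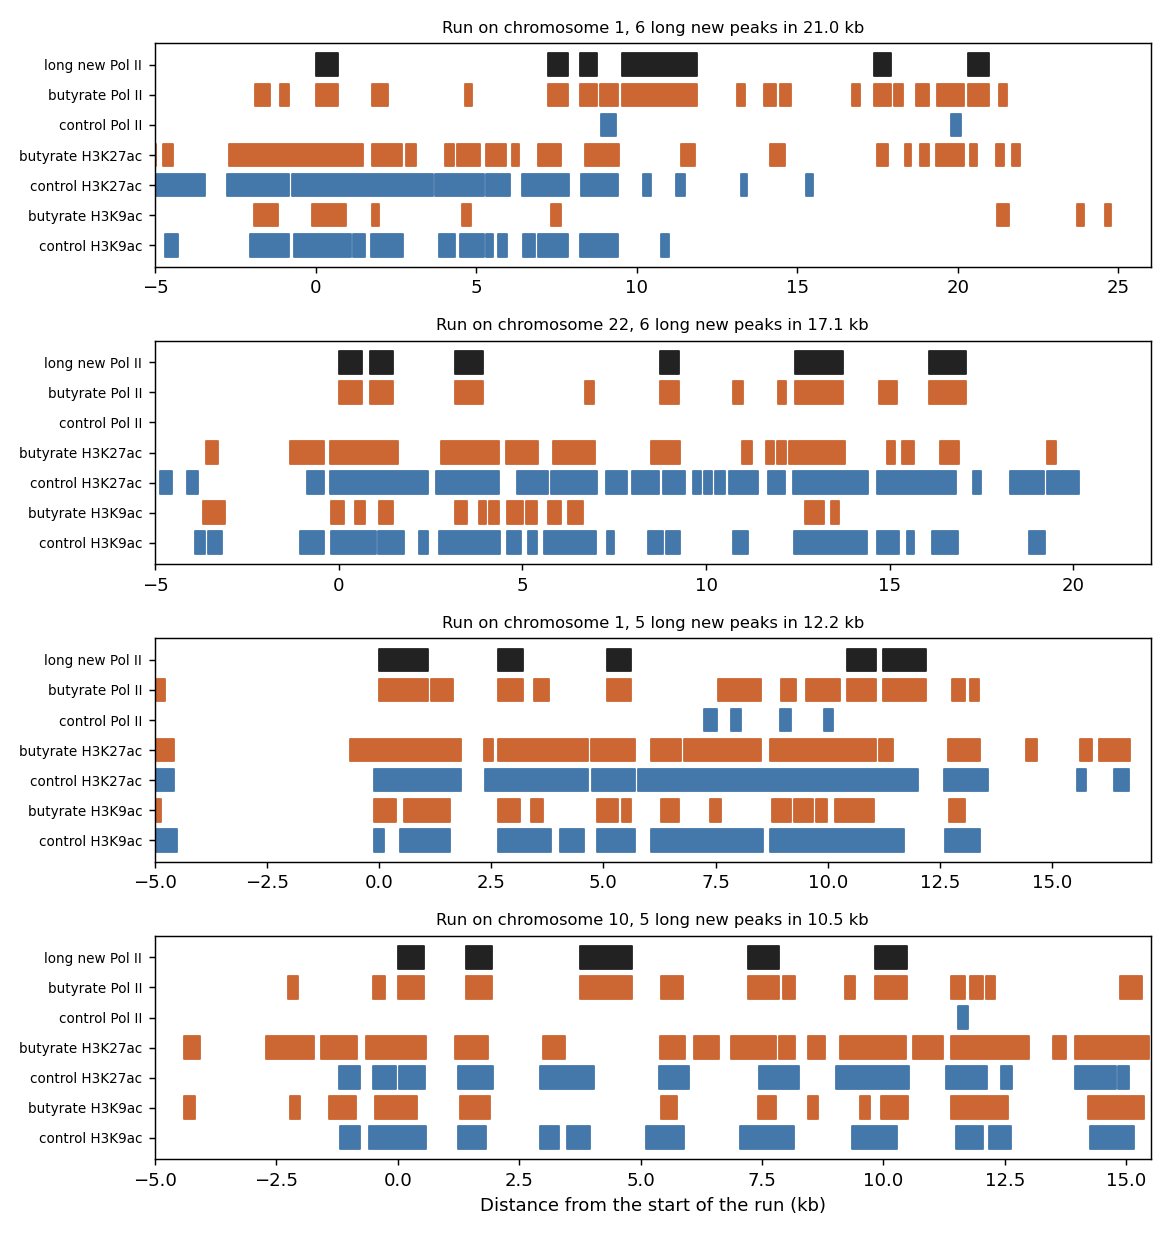
Peaks of 6 lists (rows) along the 4 runs with the most long new peaks, by distance from the start of the run (horizontal axis, kb), with the long new Pol II peaks in black, butyrate lists in orange and control lists in blue, cut at 5 kb beyond each run. Butyrate Pol II peaks cover 35.5% to 54.8% of spans with at most 4 control Pol II peaks, a contrast that the choice of the peaks builds in. Control H3K9ac peaks cover more of the spans than butyrate H3K9ac peaks, most plainly in the run of 21.0 kb where 6.90 kb became 1.75 kb.

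The runs of 4 varied more. On chromosome 13 from 44943665 to 44954910, H3K27ac covered 43.0% and then 15.2% of 11.2 kb, and the 1.76 kb of control H3K9ac had no butyrate H3K9ac peak in its place. On chromosome 19 from 11021068 to 11034633, 4 long new peaks lay on both sides of a control Pol II peak of 2.33 kb, a place where Pol II was called in both conditions. H3K27ac there covered 94.8% and then 65.1% of 13.6 kb, and H3K9ac 78.0% and then 25.4%. In both runs each acetyl mark was called over less of the span after butyrate. The wider Pol II cover is built in by the choice of the peaks.

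On chromosome 6 from 46725180 to 46732016, a run of 4 had hardly any acetylation. A control H3K27ac peak of 0.595 kb and a control H3K9ac peak of 0.286 kb lay at its start, no acetyl peak was called in it after butyrate, and 7 Pol II peaks covered 46.6% of its 6.84 kb. This was the run with the most long new peaks among those without butyrate acetylation. The short runs of 4 on chromosome 16 from 47797830 to 47802140 and chromosome 12 from 14721177 to 14725764 had about the same total H3K27ac cover in both conditions, at 29.5% and then 28.3%, and at 28.8% and then 29.8%. Their H3K9ac went from 26.8% to 11.9% and from 13.2% to 8.09%. The run of 3 on chromosome 1 from 43780359 to 43788500, which ends with the peak of 2204 bp, had H3K27ac over 84.2% and then 69.8% and H3K9ac over 78.9% and then 42.9%. In all 10 of these runs the bases under H3K9ac peaks were fewer after butyrate, as in 67 of the 81.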

How the data were processed

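The deposited files were 8 lists of peak positions (chromosome, start and end in bp) with no height, p-value or depth. Per the labels and the methods, the authors sequenced 75-nt reads, aligned them with BWA to the bovine build UMD3.1 and called peaks with MACS2 against 1 input library, each library separately. The input had no list here. Positions are those of UMD3.1, counted from 1, with 1 added to each deposited start. The lists do not say whether starts count from 0. If they count from 1, lengths are 1 bp too small and 6 new peaks listed 1 bp short of the threshold would join. No annotation of that build was used, so no genes are named.

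Peaks were compared with Python 3.11.15 and numpy 2.4.6, and plotted with matplotlib 3.10.9. Scripts were checked on simulated peaks. Overlap meant at least 1 bp. Wilson and exact Poisson intervals at 95% came from scipy 1.17.1. Bases covered were counted once per list within 5 kb of each centre. The background for each share was all 31225 nuclear butyrate Pol II peaks. Labels give no separate cultures, and each group had 1 library, so no test was made.

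Named were the 10 runs with the most long new peaks (ties by bases covered), the 10 longest, and the 5 longest with no acetyl peak, with butyrate H3K27ac but no control acetyl peak, and with control H3K27ac but no butyrate acetyl peak. The regions, rules and lists were chosen with earlier results of these data known. Alternatives changed the length, gap, overlap, window, joining, distance to control Pol II and chromosomes used.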

Additional observations from a re-analysis of the deposited data

How the results depend on the processing

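No paired analysis was possible because every group consisted of a single library, which also left no replicate to leave out. Among 58 alternative values, 26 stayed within the 95% interval of the reported share, or within 1.5 times the reported number, and 32 moved by more. Requiring no control Pol II peak within 1 kb left 862 long new peaks and moved no share beyond its interval. A minimum of 750 bp left 174, with 91.4% met by control H3K27ac, 87.9% by control H3K9ac, 2.87% by control H3K9me3 and 60.3% by butyrate H3K9ac, and with more bases after butyrate at 62.1% for H3K27ac and 20.7% for H3K9ac. Joining butyrate Pol II peaks under 1 kb apart gave 3046, with 17.0% in runs, 76.8% met by control H3K27ac, 87.2% by butyrate H3K27ac and 72.8% by butyrate H3K9ac, and more bases at 76.3% and 40.6%, since joining admits clusters of short peaks. Runs with gaps of at most 5 kb held 16.9%. Asking for 50% of the peak to be covered gave 64.7% and 72.3% for control and butyrate H3K27ac, 59.7% and 41.5% for H3K9ac and 1.03% and 0.823% for H3K9me3, and the centre gave 64.9% and 70.5%, 59.4% and 43.2%, and 2.47% and 2.06%. More H3K27ac bases were found at 60.1% within 2 kb and 77.0% within 10 kb, and more H3K9ac bases at 25.3% and 37.8%. Without chromosomes 5 and 14 control H3K9me3 met 3.16%. Where construction does not show it, the cause was not tested. Peak number and length rise with depth, which limits every comparison between lists.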
